A study of Homo sapiens with 54 samples.

Results

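SKF82958 is an agonist of the D1-like dopamine receptors. It was applied at 50 µM to H9-derived cultures labelled hMSNs, that is, medium spiny neurons made from the H9 (WA09) human embryonic stem cell line. The members were chosen by their labels as the 3 libraries of SKF82958 and the 3 Water libraries of the agonist experiment, 6 of the 54 samples of the series. The rest of the series is mainly dopamine given to the same type of culture, and 12 of those libraries (dopamine at 1 mM or 1 µM for 1 h, each with its own PBS controls) are set beside SKF82958 below. The quinpirole libraries of the agonist experiment entered no fit. The cultures of both groups were grown by the same protocol, with BDNF and GDNF in the maturation medium. How long SKF82958 was left on the cells is not given in the sources used here. All libraries come from a single cell line, and the labels do not say whether replicates were separate cultures. The paper calls the replicates of its agonist and acute dopamine data independent, but does not name SKF82958. The p-values therefore measure only the spread between these samples, which may be technical.

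D1-like receptors couple to stimulatory G proteins, and their activation raises cAMP, which activates protein kinase A and the transcription factor CREB. In striatal neurons this route is known for inducing immediate early genes, a class of genes transcribed within minutes of a stimulus without new protein synthesis. Many of them encode transcription factors (the FOS, JUN, EGR and NR4A families), while others encode phosphatases or RNA-binding proteins that end the response. A further set of early genes, among them CCN1, CCN2 and ANKRD1, is read out by serum response factor (SRF), which responds to actin and MAP kinase signals, and by the Hippo pathway effector YAP with its partner TEAD.

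The SKF82958 libraries held 12402498 to 13394472 reads on genes and the Water libraries 12784337 to 15144797. Introns took 16.4% to 18.1% of these reads with SKF82958 and 14.6% to 17.3% in Water. The first principal component (48.3% of the variance) placed the libraries in the order of their intron share, with the groups overlapping. Exon reads were tested as a planned second measure. Mitochondrially encoded transcripts took 27.0% to 29.4% of TPM (transcripts scaled per library by length and total, computed from exon reads) with SKF82958 and 29.8% to 30.8% in Water. The marker genes go only part of the way with the label. Of the listed striatal markers, BCL11B (CTIP2) had a TPM of 70.3 to 84.1 over the 6 libraries, PPP1R1B (DARPP32) of 32.1 to 44.7 and ARPP21 of 18.9 to 22.8. In contrast, PDYN did not pass 0.412 and the GABA synthesis genes GAD1 and GAD2 stood at 13.96 to 19.1 and 6.37 to 9.09. Markers of cortical glutamatergic neurons were more abundant, with NEUROD6 at 541 to 759, TBR1 at 132 to 141 and SLC17A7 at 99.9 to 125. TTR, a marker of choroid plexus epithelium, reached 2788 to 4442. The striatal list of 23 genes summed to a TPM of 642.3 to 688.6 with SKF82958 and 657.5 to 710.1 in Water. The 9 glutamatergic markers summed to 1672 to 1779 and 1540 to 1925. The authors found DARPP32 protein in part of the H9 cells by immunostaining, and FOXP1, CTIP2 and ARPP21 by QRT-PCR. They also report markers of D1 neurons (DRD1, TAC1 and PDYN) and of D2 neurons (DRD2 and PENK among them). Their QRT-PCR values are folds over undifferentiated stem cells. Such folds are not levels, so the low TPM of PDYN here cannot be compared with them directly. By TPM the libraries held markers of several cell types, and the single genes were all chosen from the lists after their values were seen. In such bulk samples fewer cells of a type and less RNA per cell cannot be told apart.

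The receptor genes were examined first, since DRD1 and DRD5 encode the D1-like receptors. DRD1 was low. Its TPM was 2.25, 1.51 and 0.718 with SKF82958 and 1.58, 1.93 and 1.64 in Water, from 8 to 25 exon reads per library. DRD5 had a TPM of 0.764, 1.99 and 2.44 with SKF82958 and 1.28, 1.23 and 1.76 in Water. The groups overlapped for both genes. DRD2, which encodes a D2-like receptor that inhibits cAMP synthesis, was higher at 7.76, 11.1 and 7.91 against 9.10, 9.43 and 7.54. DRD4 had a TPM of 12.5 to 18.0 against 9.61 to 11.8, and DRD3 of 2.40 to 4.79 against 2.45 to 4.72. Of the adenosine receptors, which share the cAMP route with dopamine receptors in the striatum, ADORA1 stood at 42.2 to 51.1, ADORA2B at 3.70 to 6.48 and ADORA2A at 0.666 to 2.82 over the 6 libraries. None of the 8 receptor genes passed the test (edgeR, 1 at an unadjusted p under 0.05, 0 by DESeq2, limma-voom or exon reads), and their log2(fold change) values ran from -0.34 for DRD1 to 0.57 for ADORA2A.

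By total gene reads SKF82958 changed few genes, and nearly all of them rose. Of 19520 genes tested by total gene reads, 94 passed an adjusted p-value of 0.05 (0.482% of the genes tested). Of these, 92 were higher with SKF82958 (0.471%) and 2 were lower (0.0102%). The 92 higher genes rose 1.25-fold to 6.23-fold with a median of 1.70-fold, and 29 of them had a log2(fold change) of at least 1. Their TPM ranges did not overlap between groups in 88 cases, while 15.5% of all tested genes had the same separation with SKF82958 higher. By exon reads, 149 of 15868 genes passed (0.939%), 135 higher (0.851%) and 14 lower (0.0882%). The 2 sets shared 80 genes, 85.1% of the calls by gene reads and 53.7% of those by exon reads. The balance of directions depended on the fit, with 143 higher and 89 lower without Water replicate 3, 218 and 108 without a filter on low counts, and 133 and 35 by DESeq2. The median log2(fold change) of all tested genes was -0.0021. In the plot of change against level the genes called higher lie above 0 and the 2 called lower lie below it.

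**Figure D1:**
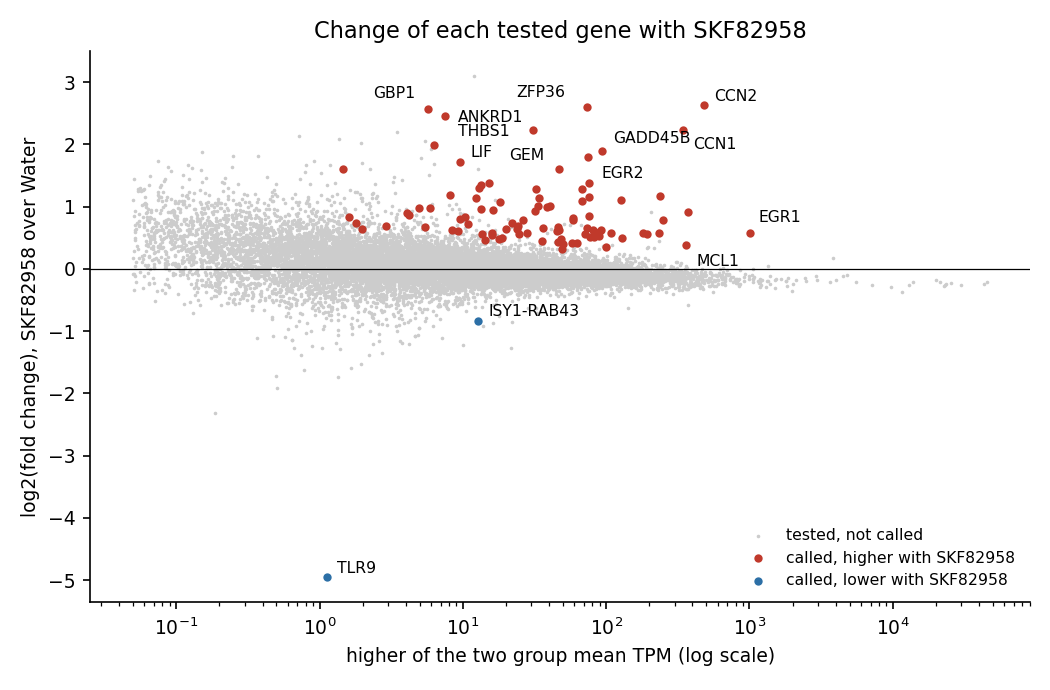
Each point is a gene tested by total gene reads, with the higher group mean TPM on the x axis (log scale) and log2(fold change) of SKF82958 over Water on the y axis; red marks the genes called higher (92, of which AC020916.1 has a TPM of 0 and lies outside the axis) and blue the 2 called lower. CCN2, ZFP36 and GBP1 have the largest called increases, and EGR1 is the called gene with the highest TPM.

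The largest called increases were those of CCN2, ZFP36 and GBP1, followed by ANKRD1, CCN1 and THBS1. CCN2 (CTGF), which encodes a secreted matricellular protein, had a TPM of 437, 518 and 481 with SKF82958 against 69.2, 65.0 and 73.1 in Water. Every SKF82958 library was far above every Water library, and the log2(fold change) was 2.64 (SE 0.07, adjusted p = 2.18e-08). Its paralog CCN1 (CYR61) followed the same pattern at 312, 362 and 359 against 65.0, 61.7 and 68.5 (log2(fold change) 2.23, SE 0.07, adjusted p = 3.04e-08). ANKRD1, a nuclear cofactor induced by YAP, was much less abundant, with 5.87, 10.6 and 6.22 against 1.26, 0.817 and 1.06 (log2(fold change) 2.46, SE 0.26, adjusted p = 0.00108). THBS1, which encodes the matrix glycoprotein thrombospondin 1, rose from 4.73, 5.72 and 7.77 to 27.5, 33.8 and 31.1 (log2(fold change) 2.23, SE 0.13, adjusted p = 5.64e-06). Exon reads gave changes of 2.71, 2.32, 2.74 and 2.28 for the same genes in that order, all called.

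The promoter sequences of a few of these genes are shown because the data bear on early genes read out by known factors. The windows are the 250 bases upstream of RefSeq transcript starts (GRCh38.p14), 5′ to 3′ on the gene's strand. Of the 92 higher genes, 67 matched the table with 91 windows, and CCN1 was among the 25 that did not. Capitals mark matches, on either strand, to the TEAD motif GGAATG, the CRE TGACGTCA or its core TGACG, the AP-1 motifs TGAGTCA and TGACTCA, and the SRF-binding CArG box, and matches may overlap. CCN2 (chr6:131951373-131951622, minus strand) and ANKRD1 (chr10:90921088-90921337, minus strand) held TEAD matches only, 3 and 2 of them. EGR2 (the window chr10:62816367-62816616, minus strand) held a CArG box flanked by CRE cores, while another of the 3 EGR2 windows held 2 TEAD matches and the third none. FOSB (chr19:45467746-45467995, plus strand) held a single CRE core. The window of ZFP36, not shown, held 1 TEAD match and the 2 windows of ATF3 none.
CCN2: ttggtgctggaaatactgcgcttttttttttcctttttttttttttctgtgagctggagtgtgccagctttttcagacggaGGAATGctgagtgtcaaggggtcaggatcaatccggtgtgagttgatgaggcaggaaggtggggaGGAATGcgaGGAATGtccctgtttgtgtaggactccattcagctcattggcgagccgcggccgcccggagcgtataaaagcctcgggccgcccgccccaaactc
ANKRD1: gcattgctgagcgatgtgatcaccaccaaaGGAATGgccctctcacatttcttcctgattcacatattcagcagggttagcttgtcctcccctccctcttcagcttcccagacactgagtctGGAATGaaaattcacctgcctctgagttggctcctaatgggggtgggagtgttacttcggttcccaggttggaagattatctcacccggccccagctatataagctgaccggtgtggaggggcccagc
EGR2: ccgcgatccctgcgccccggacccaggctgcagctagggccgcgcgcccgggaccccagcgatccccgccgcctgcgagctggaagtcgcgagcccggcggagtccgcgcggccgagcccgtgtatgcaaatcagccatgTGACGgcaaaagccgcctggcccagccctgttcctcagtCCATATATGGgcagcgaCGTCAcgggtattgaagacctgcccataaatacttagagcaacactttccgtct
FOSB: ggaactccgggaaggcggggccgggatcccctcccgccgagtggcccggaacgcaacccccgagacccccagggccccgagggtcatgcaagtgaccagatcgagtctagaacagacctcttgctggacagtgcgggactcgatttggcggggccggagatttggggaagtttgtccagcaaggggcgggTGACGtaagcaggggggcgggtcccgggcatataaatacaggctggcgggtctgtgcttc
Over the 91 windows, TEAD matches were found in 16 (17.6%), CRE cores in 27 (29.7%), full CREs in 6 (6.59%), AP-1 motifs in 4 (4.40%) and CArG boxes in 4 (4.40%). Over all 18569 windows of tested genes, the shares were 10.1%, 26.1%, 2.27%, 3.12% and 1.07%. These shares are a description of letters in a short window and were not tested.

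A list of 20 SRF and YAP targets covers this group. All 20 were tested, and their median log2(fold change) was 0.44. Of them 9 rose and none fell (0 lower by exon reads as well), against 0.471% higher of all tested genes. Besides CCN1, CCN2 and ANKRD1, these were TAGLN, an actin-bundling protein of smooth muscle, TPM1, which encodes tropomyosin 1, and F3, tissue factor, together with AMOTL2, AJUBA and VCL, which are named outside the rule for named genes. TAGLN had a TPM of 28.0, 44.1 and 25.5 against 14.4, 12.1 and 10.4 (log2(fold change) 1.29, SE 0.19, adjusted p = 0.00968). TPM1 had 64.1, 83.0 and 74.8 against 47.7, 46.5 and 50.3 (log2(fold change) 0.66, SE 0.08, adjusted p = 0.00239). Both genes were highest in SKF82958 replicate 2, with no overlap between groups. F3, at 22.1 to 25.0 against 13.4 to 15.2, lost its call without any of the SKF82958 replicates (log2(fold change) 0.62 to 0.67) or without Water replicate 1 (0.62). By exon reads it passed (0.65, adjusted p = 0.00601) and kept its call in all 6 such fits. AJUBA and VCL kept their calls in 2 of the 6 fits without 1 library (log2(fold change) 0.44 to 0.51 and 0.35 to 0.46) and AMOTL2 in all 6. VCL did not pass by exon reads (0.22, adjusted p = 0.216). The abundant actin genes ACTB and ACTG1 had values of -0.11 and -0.09 and did not pass the test.

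A list of 12 mesenchymal and vascular markers was examined beside this group. None of the 11 tested passed by gene reads. All 11 had a log2(fold change) above 0, with a median of 0.25, against 49.4% of all tested genes above 0. By exon reads COL1A1 and PDGFRB rose, both named after their values were seen. With 1 library left out, COL1A1 passed only without SKF82958 replicate 3 (0.98 by exon reads, against 0.54 to 0.82 in the other fits), and PDGFRB only without SKF82958 replicate 1 or Water replicate 3 (0.40 in both). COL1A1 had a TPM of 57.8, 70.8 and 38.6 with SKF82958 and 32.8, 32.0 and 28.1 in Water. The summed TPM of the list was 297 to 394 with SKF82958 and 241 to 259 in Water, and the endothelial markers CDH5 and PECAM1 did not pass 0.172 and 0.140 in any library. The part of these cells in the changes of CCN1, CCN2, THBS1 and TAGLN was not tested. None of the 14 pan-neuronal markers passed. All 14 had values below 0, with a median of -0.12, against 50.5% of all tested genes below 0. Their summed TPM of 6448 to 7016 with SKF82958 overlapped that in Water (6535 to 7074).

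Immediate early genes formed the largest called group. Of 34 listed and tested, 22 rose and none fell, with a median log2(fold change) of 0.88, where 0.471% of all tested genes were higher. By exon reads 27 rose and NPAS4 fell, where 0.851% of all tested genes were higher. The list shares 3 members with the SRF and YAP list, and 29 genes of either list were higher by gene reads. ZFP36, which encodes an RNA-binding protein that promotes decay of AU-rich mRNAs, had a TPM of 70.7, 76.6 and 72.0 with SKF82958 against 8.71, 11.8 and 13.4 in Water (log2(fold change) 2.60, SE 0.13, adjusted p = 2.12e-06). GADD45B, a stress and activity gene linked to DNA demethylation, stood at 86.3, 91.6 and 105 against 24.3, 21.99 and 21.8 (log2(fold change) 1.90, SE 0.10, adjusted p = 4.02e-06). ATF3, a stress-induced factor of the ATF/CREB family, stood at 76.0, 73.5 and 72.8 against 21.4, 18.4 and 19.9 (log2(fold change) 1.80, SE 0.08, adjusted p = 1.89e-06). In all of these the replicates of a group lay close together and the groups were far apart. ATF3 was the only called gene in the ATF4 and unfolded protein response list (29 tested, median -0.10).

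Among the zinc finger factors, EGR2 rose from a TPM of 26.0, 24.7 and 28.1 to 74.1, 71.0 and 82.3 (log2(fold change) 1.39, SE 0.07, adjusted p = 4.02e-06). EGR3 rose from 29.2, 30.5 and 33.9 to 76.1, 67.3 and 85.4 (log2(fold change) 1.15, SE 0.08, adjusted p = 4.09e-05). EGR1 was the most abundant called gene and changed less, with 937, 1013 and 1071 against 631, 554 and 637 (log2(fold change) 0.58, SE 0.06, adjusted p = 0.00121). EGR4 stood at 35.9 to 41.8 against 19.9 to 28.8 and had an adjusted p of 0.0563 by gene reads and 0.0108 by exon reads (edgeR). The call by exon reads was lost without SKF82958 replicate 3 or Water replicates 1 or 2 (adjusted p = 0.0535 to 0.0663).

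The AP-1 genes were uneven. FOSB stood at 68.0, 64.5 and 70.4 against 25.7, 23.5 and 25.8 (log2(fold change) 1.28, SE 0.07, adjusted p = 4.33e-06). FOS was more abundant, at 337, 347 and 376 against 280, 204 and 230, and its groups did not overlap, but its log2(fold change) of 0.42 (SE 0.10) did not pass by gene reads (adjusted p = 0.178). It passed by exon reads (0.48, adjusted p = 0.0130), though not without SKF82958 replicates 2 or 3 or Water replicates 2 or 3 (0.39 to 0.49). By gene reads it passed without Water replicate 1 (0.59, adjusted p = 0.00636), by DESeq2 (0.43, adjusted p = 0.00173) and with no filter on low counts (0.41, adjusted p = 0.000594). ARC, which encodes a synaptic protein of the immediate early class, stood at 81.0, 70.5 and 75.2 against 60.6, 48.8 and 57.5 and passed in neither measure (adjusted p = 0.358 and 0.0651). NPAS4, a neuronal activity factor named after its values were seen, was in the opposite direction, at 93.6, 107 and 116 with SKF82958 and 171, 116 and 138 in Water. Its log2(fold change) was -0.62 by gene reads (adjusted p = 0.0886) and -0.51 by exon reads (adjusted p = 0.0487), where it passed only without Water replicate 2 (-0.63) and otherwise ran from -0.58 to -0.33.

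**Figure D2:**
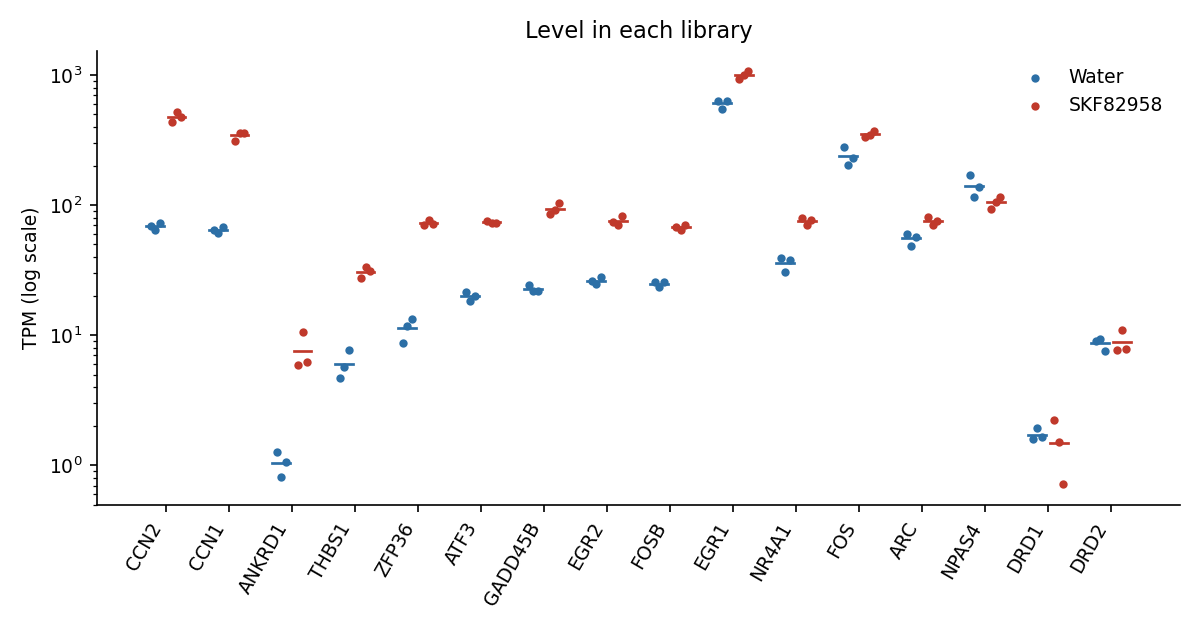
TPM (log scale) of 16 genes in each of the 3 Water libraries (blue) and the 3 SKF82958 libraries (red), with points for libraries and short lines for group means. CCN2, CCN1, ZFP36 and ATF3 are separated by wide gaps, and EGR1 and FOS by narrow ones. NPAS4 has a lower mean with SKF82958 but its groups meet, and the groups overlap for DRD1 and DRD2.

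The NR4A orphan nuclear receptors, which are early targets of CREB, rose together. NR4A3 stood at 66.7, 66.4 and 72.1 against 25.7, 27.9 and 36.8 (log2(fold change) 1.09, adjusted p = 0.000116). NR4A2 stood at 35.6, 39.8 and 41.0 against 15.1, 12.2 and 18.2 (0.99, adjusted p = 0.00164, and 1.28 by exon reads), and NR4A1 at 80.2, 71.0 and 77.2 against 39.2, 30.6 and 37.7 (0.84, adjusted p = 0.00113). No library of one group reached the other in any of the 3 genes. DUSP1, a phosphatase that inactivates MAP kinases, rose from 48.8 to 56.9 up to 121 to 135 (log2(fold change) 1.11, adjusted p = 0.000232). IER3 and MCL1, which regulate survival, were among the most abundant called genes. IER3 stood at 331 to 409 against 168 to 188 (log2(fold change) 0.91, adjusted p = 0.00053) and MCL1 at 358 to 365 against 239 to 261 (0.39, adjusted p = 0.00493).

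The list of cAMP and CREB response genes gave 9 higher and 0 lower of 34 tested, against 0.471% higher of all tested genes. The median log2(fold change) of the list was 0.21 (by exon reads 12 higher and 1 lower, the latter NPAS4). All but GEM of the 9 higher by gene reads are also in the immediate early list. GEM, a small GTPase of the RGK family, rose from 13.5, 16 and 14.8 to 46.7, 47.7 and 46.8 (log2(fold change) 1.61, SE 0.11, adjusted p = 4.03e-05). PER1, a clock gene with CRE elements, stood at 55.4, 57.3 and 61.4 against 42.5, 37.2 and 39.9 (log2(fold change) 0.41, adjusted p = 0.0321). The call of PER1 was lost without any of the SKF82958 replicates or without Water replicate 2, where the change was 0.38 to 0.43. By exon reads it passed (0.46, adjusted p = 0.00174) and was called in all 6 such fits. Several genes best known as slower or classical cAMP targets did not pass. CREM stood at 7.13 to 8.72 against 6.08 to 8.81, PDE4B at 27.5 to 31.1 against 27.1 to 28.9, and BDNF at 3.18 to 3.41 against 2.09 to 3.19. The neuropeptide genes TAC1 and PENK had log2(fold change) values of -0.05 and -0.48 and did not pass, and PDYN had too few reads to be tested. SIK1, a kinase gene induced by cAMP, had 0.22 (adjusted p = 0.652), while its near-identical copy SIK1B, named after its values were seen, was called at 0.58 (adjusted p = 0.00125), and the split of reads between these copies is uncertain.

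The cAMP machinery itself gave no calls. The striatal cAMP signalling list (40 tested, median -0.03), the CREB family and coactivators (13 tested, median -0.01) and the RGS proteins, GRKs and arrestins (23 tested, median -0.02) had none by edgeR, DESeq2, limma-voom or exon reads. PPP1R1B, which encodes DARPP32, stood at 35.5, 36.5 and 32.1 against 35.7, 44.7 and 39.0 (log2(fold change) -0.33, adjusted p = 0.364). Across the 34 lists, 25 held no called gene, with medians from -0.26 to 0.25. They held 413 tested genes, of which 92 (22.3%, against 11.03% of all tested genes) had an unadjusted p under 0.05. Of the 413, 18 passed by DESeq2 and 1 by limma-voom (168 and 89 of all 19520 tested). By exon reads 10 passed (149 of all 15868 tested). These lists were, besides those named, striatal neuropeptides and markers, activity-induced synaptic and secreted genes, GABA and glutamate receptors, voltage-gated ion channels, the synthesis of cholesterol and of fatty acids, heat shock proteins, the NRF2 response, metallothioneins, HIF targets, glycolysis, p53 targets, the cell cycle, markers of radial glia and astrocytes, interneurons, oligodendrocytes, glutamatergic neurons and pluripotent cells, and mitochondrially encoded genes. All 13 mitochondrially encoded genes had negative values (median -0.24, none called by edgeR, 11 by DESeq2 and 2 by exon reads), and so did all 17 glycolysis genes (median -0.20, none called by edgeR, 2 by DESeq2).

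**Figure D3:**
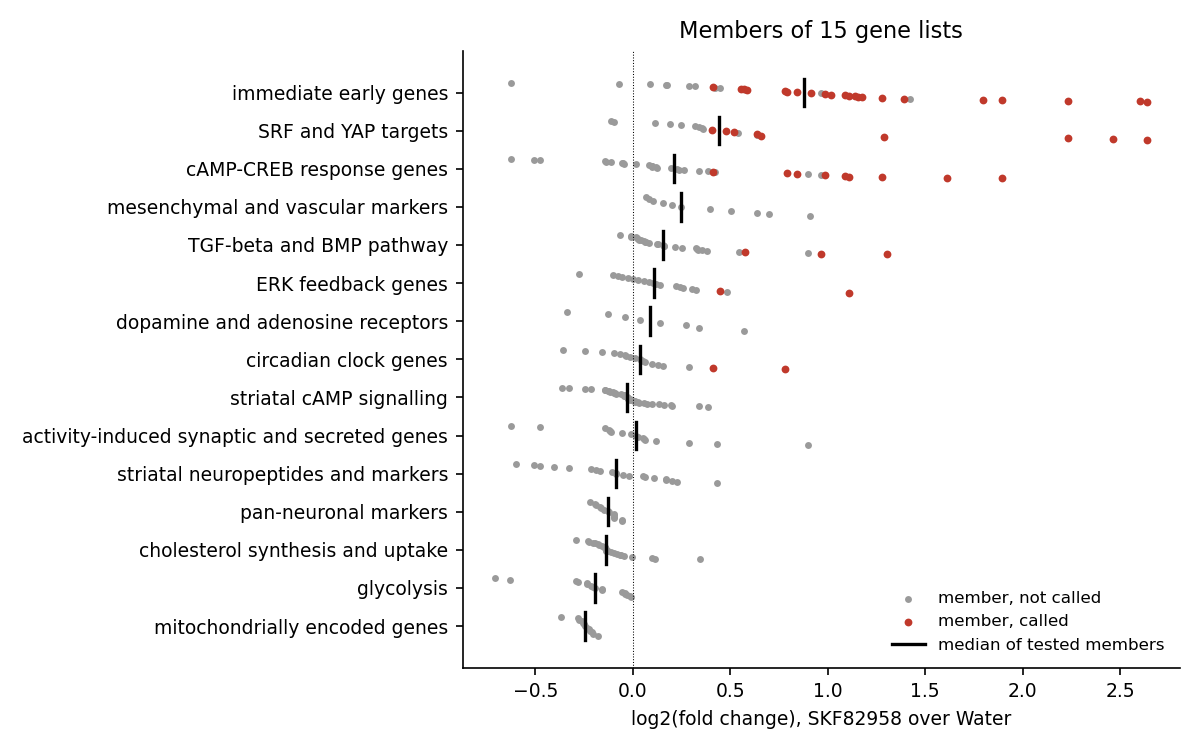
log2(fold change) of SKF82958 over Water (x axis) for the tested members of 15 gene lists (rows), with called members in red, the others in grey and a black bar at the list median. Called members are concentrated in the immediate early, SRF and YAP, and cAMP-CREB lists, which overlap, and the pan-neuronal, glycolysis and mitochondrial lists lie wholly below 0.

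Single members rose in other lists, and 0.471% of all tested genes were higher. From TGFβ and BMP signalling (29 tested, 3 higher, 0 lower, median 0.16), ID1, a target of BMP signals, stood at 207, 245 and 246 against 141, 136 and 146 (log2(fold change) 0.58, adjusted p = 0.00437). The ligand gene BMP4 had 0.97 (adjusted p = 0.0361). It kept its call only without SKF82958 replicate 1, and its changes over the other fits without 1 library were 0.83 to 1.08. By exon reads BMP4 had 1.12 (adjusted p = 0.00226) and was called in all 6 such fits. From the clock list (19 tested, 2 higher, median 0.04) the repressor BHLHE40 rose beside PER1, from 29.0 to 35.0 up to 57.2 to 62.2 (0.78, adjusted p = 0.000481). From ERK feedback (20 tested, 2 higher, median 0.11) these were DUSP1 and ERRFI1, an inhibitor of EGF receptors, which had 0.45 (adjusted p = 0.0433) and kept its call only without Water replicate 3, and by exon reads (0.40, adjusted p = 0.0238) in 3 of the 6 such fits. HES1, a Notch effector (19 tested, 1 higher, median 0.01), stood at 178 to 212 against 108 to 126 (0.56, adjusted p = 0.00543) and had an adjusted p of 0.0555 without Water replicate 1, while its call by exon reads (0.62, adjusted p = 0.000178) was kept in all 6 fits. DKK2, an extracellular modulator of Wnt signals (29 tested, 1 higher, median 0.06), had 0.94 (adjusted p = 0.0321) and lost its call without SKF82958 replicates 2 or 3 or Water replicates 1 or 2 (0.75 to 1.00). Its call by exon reads (0.94, adjusted p = 0.00206) was kept in all 6 fits.

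Of the 94 called genes, 58 are in none of the lists. GBP1, an interferon-inducible GTPase, rose from a TPM of 0.571, 0.998 and 1.22 to 5.37, 6.67 and 4.99 (log2(fold change) 2.57, SE 0.28, adjusted p = 0.00125). Its Water levels, like those of ANKRD1, were low. In Water, 3 reads on a gene of 2000 exon bases equal a TPM of 0.416 to 0.523. LIF, a cytokine of the interleukin 6 family, stood at 9.38, 11.2 and 8.13 against 2.79, 2.26 and 3.88 (1.73, SE 0.21, adjusted p = 0.0035). PLAU, which encodes urokinase, stood at 11.5 to 16.1 against 4.02 to 5.27 (1.35, adjusted p = 0.0106), and its adjusted p was 0.0808 without SKF82958 replicate 2 and 0.0618 without Water replicate 1. By exon reads it was called in all 6 fits without 1 library (1.37 with all libraries, adjusted p = 0.000804). GPR50-AS1, antisense to GPR50, had 2.00 (adjusted p = 0.0345) from 6 to 38 gene reads per library and lost its call without any 1 of the 6 libraries. By exon reads (2.04, adjusted p = 0.00427) it was called in all 6 such fits. Since the strand used in counting is not given, its reads cannot be told apart from those of GPR50.

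Genes of choroid plexus and retinal pigment epithelium were also among the calls, and they were named after their values were seen. RPE65, a visual cycle enzyme, stood at 29.7, 31.7 and 33.8 against 18.1, 21.4 and 23.0 (log2(fold change) 0.93, adjusted p = 0.000926, and 0.53 by exon reads, adjusted p = 0.0255). The call by gene reads was kept in all 6 fits without 1 library, and that by exon reads only without SKF82958 replicate 1 or Water replicate 3 (0.58 and 0.59). CLIC6, a chloride channel protein of choroid plexus, stood at 46.2, 46.6 and 42.6 against 25.2, 22.9 and 34.9 (0.61, adjusted p = 0.0366). With 1 library left out, CLIC6 was called only without Water replicate 3, and its values ran from 0.54 to 0.76. By exon reads (0.64, adjusted p = 0.00952) it was called in 4 of the 6 such fits, and not without SKF82958 replicate 2 or Water replicate 1. HTR2C, a serotonin receptor, passed by exon reads only, at 188, 189 and 211 against 127, 136 and 160 (0.40, adjusted p = 0.00834), and not without SKF82958 replicate 3 (0.35, adjusted p = 0.0793). Of 12 choroid plexus markers in a list written after these values were seen, 11 were tested and 9 lay above 0 with a median of 0.21. Their summed TPM was 3618 to 4963 with SKF82958 and 3157 to 3817 in Water, so the groups overlapped, and TTR alone stood at 3102 to 4442 against 2788 to 3418. The part of these cells in the changes of RPE65 and CLIC6 was not tested.

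Only 2 genes were lower by gene reads. ISY1-RAB43, a readthrough of neighbouring genes whose reads cannot be told apart from theirs, stood at 7.98, 6.74 and 8.25 against 11.9, 12.3 and 13.8 (log2(fold change) -0.83, SE 0.10, adjusted p = 0.00372). TLR9, a receptor for unmethylated DNA, had 0, 1 and 0 gene reads with SKF82958 and 18, 14 and 11 in Water (adjusted p = 0.0156). No fold is given for TLR9 because its SKF82958 libraries were at the floor of 3 reads or under, and with 1 library left out its call by gene reads held only without Water replicate 3, while that by exon reads (adjusted p = 0.00206) held in all 6 fits. The 14 genes lower by exon reads included SLC17A7, the vesicular glutamate transporter 1, at 109, 99.9 and 107 against 124.5, 124.9 and 121 (-0.31 by exon reads, adjusted p = 0.0101), chosen after its values were seen. It kept that call only without SKF82958 replicate 1 (-0.33) or Water replicate 3 (-0.34).

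Leaving out 1 library at a time kept 46 of the 94 calls in all 6 fits, 45 of them higher, among them CCN2, CCN1, ZFP36, GBP1, ANKRD1, THBS1, ATF3, GADD45B, LIF, GEM, EGR1, EGR2, EGR3, FOSB, the NR4A genes, DUSP1, IER3, MCL1, ID1 and BHLHE40. The number called ranged from 51 without Water replicate 1 and 53 without SKF82958 replicate 2 to 232 without Water replicate 3, the Water library with the highest intron share. In that last fit 143 genes were higher and 89 lower.

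Dopamine, which activates D1-like and D2-like receptors together, was set beside the agonist. Doses, vehicles and experiments differ between these treatments and SKF82958, and the exposure to SKF82958 is not known, so the compound cannot be told apart from the experiment. In fits of 3 against 3 libraries with separate controls, 64.4% of 23711 tested genes differed between 1 mM dopamine for 1 h and PBS (30.9% higher and 33.6% lower). The study gave dopamine in ascorbic acid, while the acute controls are PBS. Dopamine and ascorbic acid therefore cannot be told apart in these contrasts or in the differences from SKF82958 below. Introns took 12.3% to 13.2% of gene reads in the 1 mM dopamine libraries and 19.5% to 21.8% in their PBS controls, and the part of this gap in the calls was not tested. Of the 91 higher genes of SKF82958 that were tested there, 82 were higher, 1 was lower (RAD51B) and 8 did not pass. At 1 µM dopamine, 0.146% of 19900 genes passed (0.0754% higher and 0.0704% lower). Of the 88 tested there, EGR1, NR4A3 and HKDC1 were higher, ARRDC3 was lower and 84 did not pass. The 3 higher genes are 3.26% of the 92 genes and 20.0% of the 15 genes higher with 1 µM dopamine. Of the 88, 69 had a log2(fold change) above 0, and the share of all genes above 0 was not computed. The median log2(fold change) was 0.50 for the 88 and 0.07 for all genes tested at this dose.

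The changes were then compared in a single fit of 12 libraries per dose, as the change with SKF82958 minus that with dopamine. At 1 mM this difference passed in 12170 of 23465 genes (51.9%), and by exon reads in 4898 of 17019 (28.8%). The 92 genes were chosen for a rise in the same SKF82958 and Water libraries, which by itself favours a higher difference. Among the 92 genes, the change with SKF82958 was lower than that with dopamine in 63 and higher in 9, where 29.9% and 22.0% of all genes had these directions. By exon reads it was lower in 51 and higher in 9 of the 89 tested. Among the former were FOSB (log2(fold change) 1.28 against 7.11, adjusted p of the difference = 1.81e-08) and EGR1 (0.58 against 5.33, 3.59e-11). CCN2 (2.64 against 5.13, 5.69e-07) and CCN1 (2.23 against 4.83, 5.03e-06) were lower as well. The genes with a higher change with SKF82958 included NR4A2 (0.99 against 0.0011, adjusted p = 0.00109), BHLHE40 (0.78 against -0.59, 0.00459) and LIF (1.73 against 0.64, 0.0188), the last not passing without SKF82958 replicate 2. For ANKRD1, THBS1 and GBP1 the difference from 1 mM dopamine did not pass, at -0.17 (SE 0.40, adjusted p = 0.741), 0.47 (SE 0.26, 0.152) and -0.89 (SE 0.53, 0.174).

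At 1 µM the difference passed in 344 of 21653 genes (1.59%), and by exon reads in 196 of 16653 (1.18%). The choice of the 92 genes by a rise in these SKF82958 libraries favours a higher difference here as well, so their shares are a description only. Among the 92 genes, the change with SKF82958 was higher in 12 and lower in 5, where 1.29% and 0.3% of all genes had these directions. By exon reads these were 11 and 5 of the 89 tested. The 5 were EGR1, EGR2, EGR3, FOSB and HKDC1, and EGR1 had 0.58 against 4.28 (adjusted p of the difference = 0.000673). EGR2 was listed at a TPM of 0 in each PBS library of that dose, so no fold is given. Those with higher changes included GEM (1.61 against 0.11, adjusted p = 0.00922), CCN2 (2.64 against 1.06, 0.0285) and ARRDC3, an arrestin-domain gene that rose with SKF82958 and fell with 1 µM dopamine (0.52 against -2.50, 0.000673). With each of the 12 libraries left out in turn, only EGR1, EGR2, GEM, TIMP3, CLIC6 and ARRDC3 kept the call in every fit, and CCN2 kept it in 3 of 12. The libraries of the 1 µM experiment were uneven, with 7548913 to 14402277 gene reads, intron shares of 20.2% to 31.2% and mitochondrial TPM shares of 17.5% to 44.8%, and the part of these in the difference was not tested. The total of 344 ranged from 59 without Water replicate 2 to 1050 without replicate 3 of 1 µM dopamine.

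**Figure D4:**
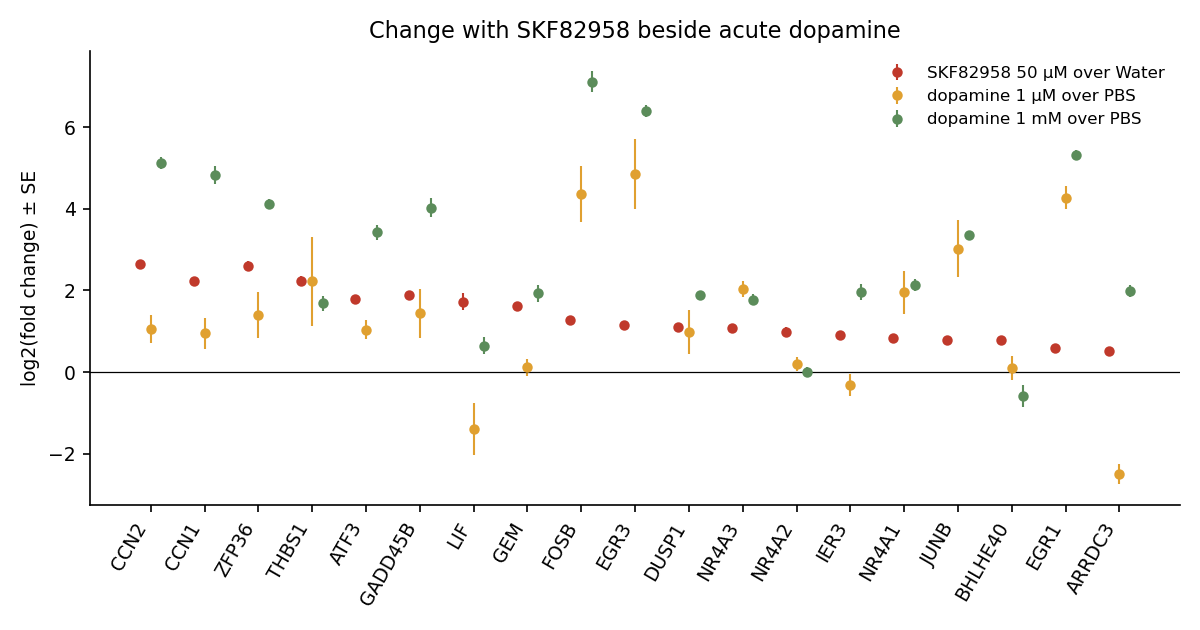
log2(fold change) with its SE (y axis) of 19 genes called higher with SKF82958, for SKF82958 at 50 µM over Water (red), dopamine at 1 µM over PBS (orange) and dopamine at 1 mM over PBS (green), each from its own 3 against 3 libraries. FOSB, EGR3 and EGR1 have their highest points with dopamine and LIF with SKF82958, NR4A2 is highest with SKF82958 although its difference from 1 µM did not pass (adjusted p = 0.0599, edgeR), and ARRDC3 is below 0 only at 1 µM dopamine.

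The control levels behind these changes differed. EGR1 had a TPM of 607 ± 46.2 (SD, n = 3) in Water, against 16.97 ± 2.78 (SD, n = 3) in the PBS libraries of the 1 mM experiment and 10.1 ± 2.79 (SD, n = 3) in those of the 1 µM experiment. Its level in Water was above that after 1 mM dopamine, 522 ± 35.0 (SD, n = 3). FOSB had 25.0 ± 1.28 in Water and 0.586 ± 0.352 and 0.597 ± 0.351 in the PBS groups (SD, n = 3 each). NPAS4 had 142 ± 27.9 in Water, 2.12 ± 2.39 and 0.223 ± 0.217 in the PBS groups and 5.80 ± 0.684 after 1 mM dopamine (SD, n = 3 each). Of the 34 immediate early genes, 19 had every Water library above every PBS library of the 1 mM experiment and 21 above those of the 1 µM experiment, while 14.7% and 27.4% of all genes tested here did. After treatment, 12 of the 34 had every SKF82958 library above every library of 1 mM dopamine and 25 above every library of 1 µM dopamine. The share of all tested genes with these separations was not computed, so the 2 counts cannot be read as a trait of early genes. FOSB reached 67.7 ± 2.96 with SKF82958 and 62.0 ± 12.6 with 1 mM dopamine, and CCN2 479 ± 40.3 and 545 ± 67.0 (SD, n = 3 each). These levels come from separate experiments and were not tested.

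**Figure D5:**
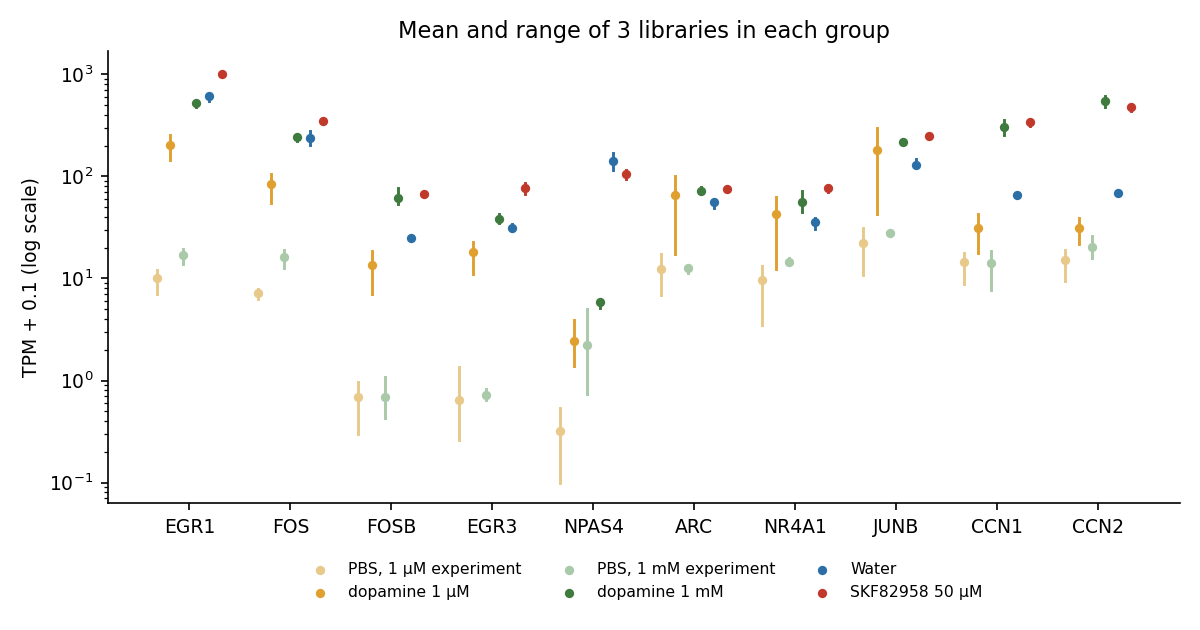
TPM plus 0.1 (log scale) of 10 early genes in 6 groups of 3 libraries, as mean (point) and range (line). The Water group (blue) lies above both PBS groups (pale) for every gene shown, by the widest margin for NPAS4, and SKF82958 (red) lies near 1 mM dopamine (dark green) for CCN1 and CCN2.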

How the data were processed

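RNA-seq libraries made from total RNA of H9-derived cultures were analysed, and how RNA was selected is not given in the sources used here. Reads were trimmed, mapped to GRCh38 (hg38) with Ensembl annotation and counted by the authors in CLC Genomics Workbench, and the strand setting is not given in the sources used here. The deposited tables hold, for 60676 genes, counts of reads on genes (exons and introns) and on exons, and TPM, which the authors computed from exon reads. Total gene reads of the 3 SKF82958 and 3 Water libraries were filtered with filterByExpr (minimum count 10, minimum total 15), scaled by TMM and tested with the quasi-likelihood F-test of edgeR 4.0.16 (R 4.3.3, limma 3.58.1), with Benjamini-Hochberg adjustment over all genes tested and a threshold of 0.05. SE was taken from the F statistic, as the size of the log2(fold change) over its root. The same fit was made on exon reads and, for each dopamine dose, in a fit of 12 libraries with an interaction term. Alternatives were unique reads, DESeq2 1.42.0, limma-voom, other scalings and filters, thinning to 12402498 reads, the replicate number as a block and leaving out each library. Fits on exon reads without 1 library or by DESeq2, and most alternatives of the dopamine comparisons, were added after seeing the data. The script was tested on simulated counts. No library was left out, and 53 of the 54 samples have a file here. The floor of 3 reads covers counting error only, while the SE also includes the spread between libraries.

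Named genes were, by rule, the receptors and 14 genes that define lists, the called genes with the largest changes or the highest TPM in each direction, the leading called members of each list and the genes with the largest differences from dopamine; others are marked as chosen after their values were seen. The members and the 34 gene lists were chosen with earlier results of these data known, and the choroid plexus list was added after the values were seen. Promoters come from RefSeq (GRCh38.p14). The values of 1 called gene are not reported here.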

Additional observations from a re-analysis of the deposited data

Results flagged for a closer look

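The change with SKF82958 differed from that with dopamine by a test of the difference itself, an interaction term in edgeR over 12 libraries without shared controls. At 1 mM dopamine this held for 12170 genes by gene reads and 4898 by exon reads. At 1 µM dopamine it held for 344 genes by gene reads and 196 by exon reads. Dose, vehicle and experiment differ between the treatments and cannot be told apart from the compound.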

How the results depend on the processing

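By gene reads 94 genes passed, 92 higher and 2 lower. Exon reads gave 149 (14 lower), unique reads 5 lower, DESeq2 168 (35 lower), no filter on low counts 326 (218 higher, 108 lower), at least 10 reads in every library 7 lower, and 29 genes also had an absolute log2(fold change) and a TPM of 1 or more. Without 1 library the totals ran from 51 to 232, with 50 to 143 higher and 1 to 89 lower. In analyses added after seeing the data, exon reads with DESeq2 gave 158 (141 higher, 17 lower), and exon reads without 1 library gave 84 to 240 (167 without SKF82958 replicate 1), with 77 to 183 higher and 7 to 57 lower (9 without Water replicate 2). The difference from 1 mM dopamine passed in 12170 genes and by exon reads in 4898. The difference from 1 µM dopamine passed in 344, by exon reads in 196, with no filter in 146, and in 59 to 1050 without 1 library. The cause was not tested. None of the named genes that were called changed direction. Among 1326 values of 61 named genes, 35 values of 11 genes that were not called changed sign, and none of these passed. By exon reads ADORA2B had -0.0216 and DRD3 -0.18, and by exon reads with DESeq2 ADORA2B had -0.018, DRD3 -0.175 and PDE4B 0.00115. Without 1 library, the gene-read values with a change of sign ran from -0.114 to 0.039 for ADORA1, -0.0537 to 0.245 for BDNF, -0.777 to 0.00205 for DRD1, -0.199 to 0.183 for DRD3, -0.152 to 0.471 for DRD5, -0.0944 to 0.383 for SIK1 and -0.263 to 0.0964 for TAC1. By exon reads without 1 library, the values of the other sign were ADORA1 0.0108 and 0.063, ADORA2B -0.146, -0.141 and -0.116, CREM -0.0423, DRD1 0.0488, DRD2 0.0492, 0.0406, 0.00482 and 0.0245, DRD3 -0.12, -0.485, -0.388 and -0.185, DRD5 -0.0925, PDE4B 0.0374, 0.00288 and 0.0404, SIK1 -0.0151 and TAC1 0.0484. Of the 36 called genes among the 61, 25 kept their side of the threshold under every alternative. The residual correlations of like-numbered libraries were -0.01, -0.16 and 0.37, and not every library correlated best with its own number. With 3 libraries per group these correlations cannot tell whether the samples were paired, and the main fit used no pairing. With the replicate number as a block 107 genes passed, 101 higher and 6 lower, and neither dopamine difference moved by over 1.5 times. Gene reads of 12402498 to 15144797 per library limit the genes near the floor of 3 reads, such as TLR9.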
